A study of Sus scrofa with 6 samples.

Results

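The nuclear-encoded genes of the mitochondrial respiratory chain were followed in longissimus dorsi, a long back muscle, of Wannanhua and Yorkshire pigs. Wannanhua is a local Chinese breed and Yorkshire a lean commercial breed. Each breed gave 3 libraries, all labelled as 5 months old, although the design text of the series speaks of piglets. No treatment or genetic change is labelled for either breed, and the labels do not state that the libraries of a breed came from separate animals, so the p-values speak only to the scatter among libraries, part of which may be technical. Members were all genes whose symbol starts with NDUF, SDHA to SDHD, UQCR, COX4 to COX8, CYC1 or ATP5. The rule found 51 of the 17627 genes in the deposited table, and all 51 passed the filter on low values. They comprised 3 core and 17 supernumerary subunits of complex I, 4 subunits of complex II and 6 of complex III. A further 8 were counted with complex IV and 5 with complex V, and 8 were assembly or regulatory factors. Counted among the complex IV subunits were NDUFA4L2, a relative of NDUFA4, and COX7A2L, which joins complexes III and IV. The name table holds 84 symbols under the rule, and the other 33, among them CYC1, COX6A2 and COX7A1, were not analysed here.

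The respiratory chain passes electrons from NADH (through complex I) and succinate (through complex II) to ubiquinone, then through complex III and cytochrome c to complex IV, where oxygen is reduced. Complexes I, III and IV pump protons across the inner mitochondrial membrane, and complex V, the ATP synthase, uses the return flow to make ATP. Most subunits are encoded in the nucleus and must be matched with the mitochondrially encoded ones. In skeletal muscle the chain is richer in slow and other oxidative fibres than in fast glycolytic ones.

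The series asks which muscle genes differ between the breeds. For the respiratory chain the data showed no called breed difference: 0 of the 51 genes passed in limma (adjusted p under 0.05), against 3.05% of the 11791 genes tested. The edgeR count test also called 0 of 51, against 2.87% of its genes. What the genes shared was an order of the libraries inside each breed. Yorkshire 1 stood above Yorkshire 3, Yorkshire 3 above Yorkshire 2, and Wannanhua 3 lowest in its breed for 42 of the 43 subunits, against 6.71% of all genes tested. This order was described after the values were seen and carries no test.

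Libraries held between 16385602 and 21056699 recovered reads, and the 51 genes took 0.639% to 1.33% of them. Levels are in FPKM, fragments scaled to transcript length and library size. Summed over all genes, FPKM ran from 860233 in Wannanhua 2 to 1906332 in Yorkshire 1. Yorkshire 1 also had the fewest genes at 1 FPKM or more, 10726. The part of these differences in the library order was not tested. Fold changes are given as the Wannanhua mean less the Yorkshire mean of log2(FPKM + 1), which understates those of the scarcest genes. On that scale the median of all genes tested lay at 0.12, so a gene moving with the bulk of the transcriptome stands there rather than at 0; quantile normalization brought that median to 0.00. All libraries expressed muscle genes: NEB, the thin-filament ruler nebulin, stood at 617 to 1061 FPKM and DES, the muscle intermediate filament desmin, at 2181 to 5716. ACTA1, skeletal actin, was listed at 0 in Wannanhua 1 and Yorkshire 2, so it was left out of the tests. The mitochondrially encoded COX3 was listed at 0 in Wannanhua 1 and Wannanhua 2 and was left out likewise. Totals of recovered reads hold such genes as 0. Shares of reads, and orders by reads over library totals, are thus not on an equal footing across libraries. The library kit does not mark strand, so reads from a gene and from an antisense partner cannot be told apart.

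The shared order can be read from the plot of 50 of the 51 genes by library.

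**Figure D1:**
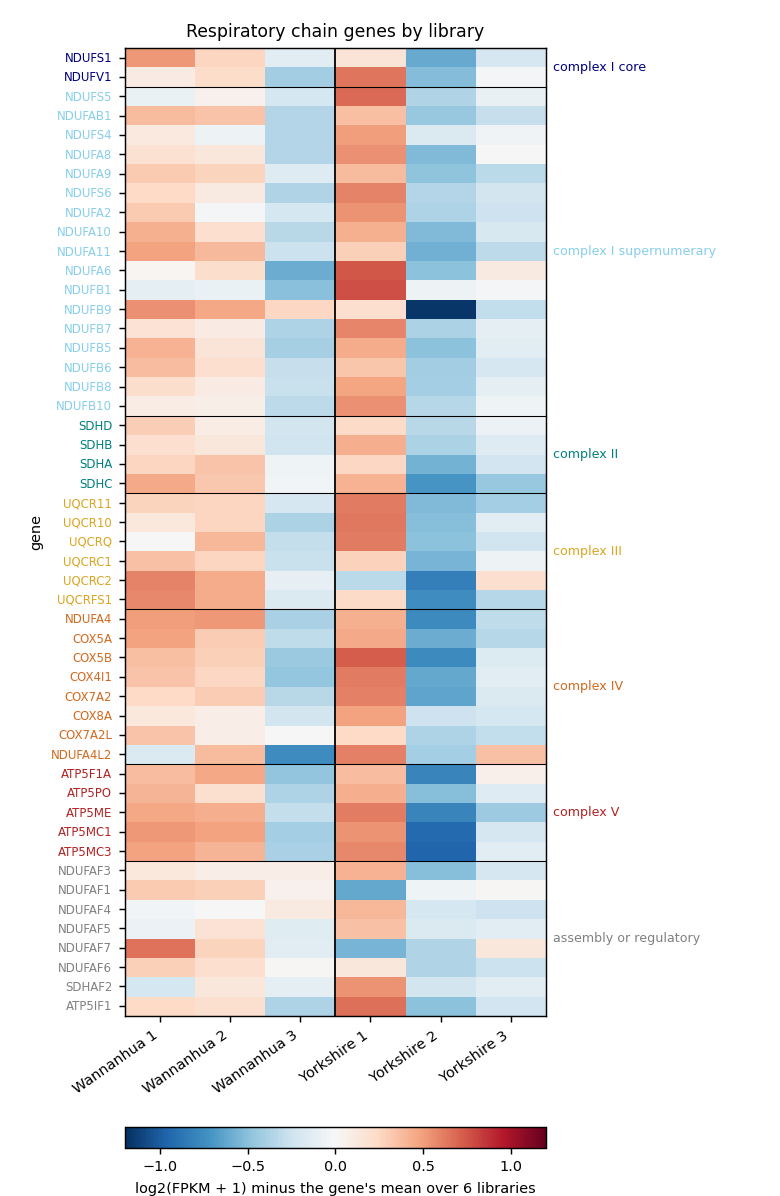
Each row is 1 of 50 genes, each column a library, and the colour gives log2(FPKM + 1) minus the gene's mean over the 6 libraries; gene names are coloured by complex. Over all 51 genes, Yorkshire 2 was the lowest library for 43 and Yorkshire 1 the highest for 33, with Wannanhua 3 below the other Wannanhua libraries in 49.

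Yorkshire 1 was the highest of the 6 libraries for 33 of the 51 genes, against 15.1% of all genes tested. Wannanhua 1 was highest for 15 and Wannanhua 2 for 3. Yorkshire 2 was the lowest library for 43 of the 51, against 11.8% of all genes tested, and Wannanhua 3 for 5. As recovered reads over library totals, Yorkshire 1 was highest for 24, Wannanhua 1 for 19 and Wannanhua 2 for 8, and Yorkshire 2 was lowest for 30, Wannanhua 3 for 14 and Yorkshire 3 for 5. The median gene of the 51 was 1.92-fold higher in Yorkshire 1 than in Yorkshire 2, whereas the median of all genes tested was lower in Yorkshire 1, at 0.898-fold. In Wannanhua the median gene of the 51 was 1.45-fold higher in library 1 than in library 3, with the median of all genes at 0.919-fold. Wannanhua 1 and Wannanhua 2 lay close, with a median fold of 1.03. The count columns, as recovered reads over library totals, kept the combined order of both breeds in 37 of the 43 subunits, against 6.20% of all genes, and quantile normalization kept it in 41, against 10.7%.

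The difference between breed means was smaller than the range of the 3 Yorkshire libraries for 51 of the 51 genes, against 69.1% of all genes tested. It was smaller than the range of the Wannanhua libraries for 45 of them, against 65.5%. The breeds' libraries did not overlap for 3 of the 51, NDUFB9, NDUFB1 and NDUFAF1, against 29.9% of all genes tested. Wannanhua was the higher breed in 2 of these, against 20.3% of all genes, and the lower in 1, against 9.63%. Without adjustment 1 of the 51, NDUFB9, had a limma p under 0.05, against 22.1% of all genes, and 0 had one in edgeR, against 21.0%. Both breed counts for the chain thus lay below the background, and the scatter among libraries of a breed above it. The 51 genes were also more abundant, at a median level of 172 FPKM against 6.68 for all genes tested. The part of the level in these contrasts was not tested.

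The median size of that scatter ran in the same order of complexes in both breeds, from V through IV and III to II; no test compares them. In Yorkshire the median range from the lowest to the highest library was 1.41 on the log2 scale for complex V, 1.12 for complex IV, 1.07 for complex III and 0.81 for complex II. In Wannanhua it was 0.87 for complex V, 0.79 for complex IV, 0.66 for complex III and 0.47 for complex II. Complex I lay between complexes III and II, with 0.93 in Yorkshire and 0.54 in Wannanhua over its 20 subunits. The assembly and regulatory factors ranged least, by 0.66 and 0.30, and all genes tested had median ranges of 0.48 and 0.44. The factors were also the scarcest class, with a median level of 20.8 FPKM against 612 for complex V, and the part of the level in the range was not tested.

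**Figure D2:**
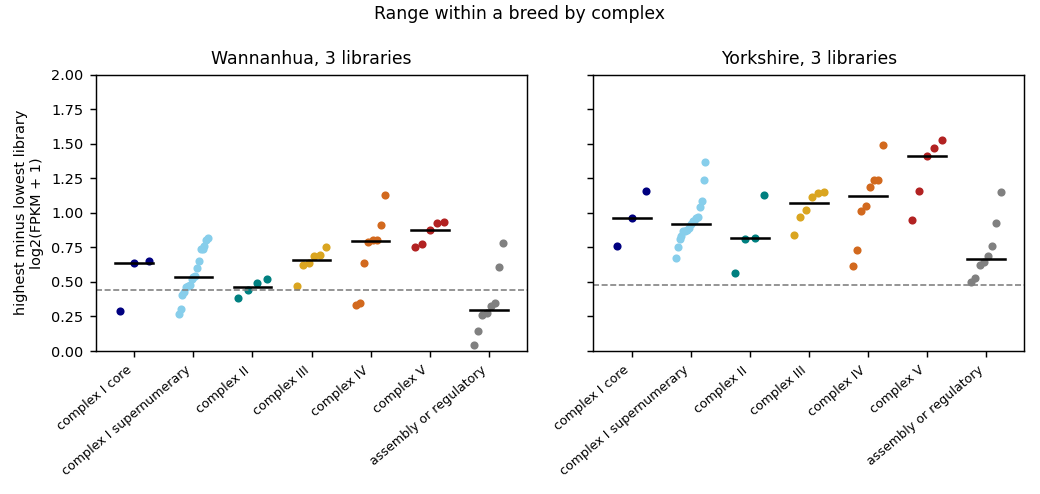
Each point is a gene, placed by its highest minus its lowest library on the log2(FPKM + 1) scale in Wannanhua (left) and Yorkshire (right); black lines are class medians and the dashed line the median of all genes tested. Complex V has the highest class median in both breeds, 0.87 and 1.41, and the factors the lowest, 0.30 and 0.66.

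Complex I takes electrons from NADH; its core subunits carry the flavin and iron-sulphur clusters, and the supernumerary ones surround and stabilise it. Of its 20 subunits, 11 had a positive and 9 a negative fold change, with a median of 0.04, beside 0.12 for all genes. In edgeR 8 of the 20 were positive. NDUFS1, the largest iron-sulphur subunit of the core, stood at 157, 130 and 99.2 FPKM in Wannanhua 1, 2 and 3 and at 122, 71.4 and 94.7 in Yorkshire 1, 2 and 3. Its breeds overlapped, with a log2 fold change of 0.43 ± 0.26 (SE; limma adjusted p = 0.378). NDUFV1, which binds NADH and the flavin, had the opposite sign, by less than its spread. It stood at 107, 116 and 74.2 FPKM in the Wannanhua libraries and at 155, 69.1 and 97.7 in the Yorkshire ones (log2 fold change -0.06 ± 0.32 SE, limma adjusted p = 0.927). Both were lowest in Yorkshire 2.

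Among the supernumerary subunits, NDUFB9 (ENSSSCG00000005976), a membrane-arm subunit of the LYR protein family, had the smallest limma p of all 51 genes; in edgeR NDUFB1 had it. It stood at 742, 699 and 602 FPKM in Wannanhua 1, 2 and 3 and at 583, 225 and 411 in Yorkshire 1, 2 and 3. All Wannanhua libraries lay above all Yorkshire libraries, but the closest pair, 602 and 583, lay nearly together. The log2 fold change was 0.84 ± 0.34 (SE, 95% interval 0.04 to 1.64) and did not pass, with a limma adjusted p of 0.207 and 0.355 in edgeR. Over 17 other settings its adjusted p ran from 0.0931 to 0.757.

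NDUFB1 (ENSSSCG00000002449), a small membrane-arm subunit, had the lowest fold change of the 51. It stood at 1045, 1069 and 796 FPKM in the Wannanhua libraries and at 1934, 1085 and 1117 in the Yorkshire ones, again without overlap but with only Yorkshire 1 far off. The fitted difference, -0.47 ± 0.28 in log2 (SE), had a limma adjusted p of 0.381 and an edgeR adjusted p of 0.305. It was -0.13 after quantile normalization and -0.19 without Yorkshire 1. Its rank by FPKM goes with a short length: 1 FPKM of NDUFB1 stood for 1.56 scaled counts, against 90.2 for UQCRFS1, and by scaled counts it ranked 34 among the 51 rather than 2. NDUFA11, which joins the membrane arm, stood at 123, 115 and 73.2 FPKM in the Wannanhua libraries and at 108, 58.5 and 70.6 in the Yorkshire ones (limma adjusted p = 0.458). NDUFAB1, the mitochondrial acyl carrier protein that also serves fatty acid synthesis, averaged 272 ± 70.8 FPKM in Wannanhua against 230 ± 71.6 in Yorkshire (SD, n = 3; limma adjusted p = 0.665). Log2 fold changes of the remaining 13 supernumerary subunits lay between -0.24 and 0.29.

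**Figure D3:**
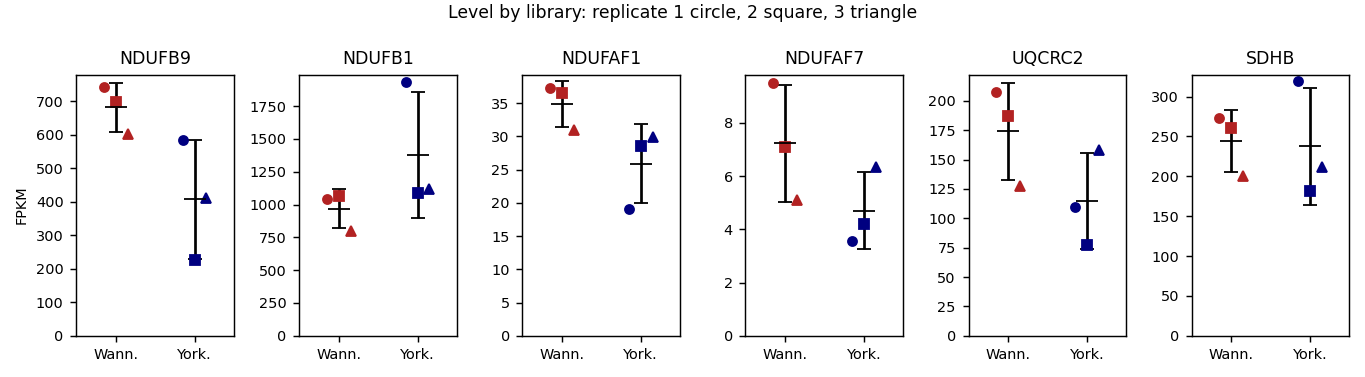
Levels in FPKM of NDUFB9, NDUFB1, NDUFAF1, NDUFAF7, UQCRC2 and, for comparison, SDHB; symbols mark replicates 1 (circle), 2 (square) and 3 (triangle) of Wannanhua (red) and Yorkshire (blue), and bars give the mean ± SD of 3 libraries. Yorkshire 1 is the highest Yorkshire library for SDHB, NDUFB9 and NDUFB1, at 583 FPKM for NDUFB9, but the lowest for NDUFAF1 and NDUFAF7, at 19.1 and 3.56.

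Complex II, succinate dehydrogenase, links the tricarboxylic acid cycle to the chain, and all of its subunits are nuclear-encoded. All 4 had a positive fold change in limma (median 0.24), but 0 passed. The median was 0.073 without Yorkshire 2, 0.44 without Yorkshire 1 and 0.084 in edgeR, where 2 of the 4 were positive. SDHA, the flavoprotein that oxidises succinate, stood at 201, 212 and 162 FPKM in the Wannanhua libraries and at 199, 113 and 143 in the Yorkshire ones. The breeds overlapped through Yorkshire 1 (log2 fold change 0.37 ± 0.25 SE, limma adjusted p = 0.423). SDHB, the iron-sulphur subunit, averaged 245 ± 38.6 FPKM in Wannanhua against 238 ± 73.0 in Yorkshire (SD, n = 3; limma adjusted p = 0.896). Of the membrane anchors, SDHC stood at 213, 195 and 151 FPKM in the Wannanhua libraries and at 208, 94.7 and 113 in the Yorkshire ones (log2 fold change 0.50 ± 0.31 SE, limma adjusted p = 0.392). SDHD, the other anchor and the most abundant of the 4, averaged 348 ± 61.8 FPKM in Wannanhua against 324 ± 63.4 in Yorkshire (SD, n = 3; limma adjusted p = 0.814). By mean level the order was SDHD, SDHB, SDHA and SDHC, at 336, 241, 172 and 162 FPKM over the 6 libraries, with SDHA and SDHC within their spread of each other.

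Complex III passes electrons from ubiquinol to cytochrome c. The 6 subunits measured all had a positive fold change in limma (median 0.22), but 0 passed. Without Yorkshire 2 that median was 0.00080, without Yorkshire 1 it was 0.50, and in edgeR it was 0.070 with 4 of the 6 positive. UQCRC2 (ENSSSCG00000007845), a core structural subunit, stood at 207, 187 and 128 FPKM in the Wannanhua libraries and at 109, 77.4 and 158 in the Yorkshire ones. It was the exception among the 43 subunits, with Yorkshire 3 rather than Yorkshire 1 highest in its breed. Its log2 fold change was 0.62 ± 0.31 (SE, 95% interval -0.09 to 1.34, limma adjusted p = 0.278), and edgeR gave an adjusted p of 0.485. UQCRFS1, the Rieske iron-sulphur protein that takes the first electron from ubiquinol, averaged 125 ± 32.3 FPKM in Wannanhua against 85.2 ± 29.6 in Yorkshire (SD, n = 3), with a log2 fold change of 0.57 ± 0.31 and a limma adjusted p of 0.326. UQCRC1, the partner of UQCRC2, had a smaller difference, 275 ± 59.8 FPKM in Wannanhua against 237 ± 67.0 in Yorkshire (SD, n = 3; limma adjusted p = 0.667). UQCR11, the most abundant by FPKM, ran from 487 in Yorkshire 2 to 1083 in Yorkshire 1 and thus spanned all Wannanhua libraries (limma adjusted p = 0.752).

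Complex IV, cytochrome c oxidase, reduces oxygen; its catalytic core is mitochondrially encoded and the nuclear subunits tune it, some with tissue forms. Of the 8 genes measured, 6 had a positive fold change in limma (median 0.14), but 0 passed. This median was -0.14 without Yorkshire 2, 0.48 without Yorkshire 1 and -0.044 in edgeR, with 3 of the 8 positive there. NDUFA4, once assigned to complex I and now counted with complex IV, was the most abundant of the 51. It stood at 2645, 2683 and 1428 FPKM in the Wannanhua libraries and at 2512, 1104 and 1518 in the Yorkshire ones, with 3 high and 3 low libraries that crossed the breeds (log2 fold change 0.42 ± 0.38 SE, limma adjusted p = 0.555). A pseudogene of the same name stands in the RefSeq table, and no source used here gives how reads matching both were counted, so its level is uncertain. COX4I1, the ubiquitous form of subunit IV, stood at 335, 313 and 191 FPKM in the Wannanhua libraries and at 406, 172 and 239 in the Yorkshire ones (limma adjusted p = 0.910). COX7A2, the form of subunit VIIa found in most tissues, averaged 132 ± 29.8 FPKM in Wannanhua against 125 ± 56.3 in Yorkshire (SD, n = 3; limma adjusted p = 0.841). For COX8A, the form of subunit VIII found in most tissues, the means were 53.9 ± 6.91 and 55.8 ± 17.3 FPKM (SD, n = 3; limma adjusted p = 0.978). COX7A2L, which joins complexes III and IV into supercomplexes, averaged 26.3 ± 3.43 FPKM in Wannanhua against 21.7 ± 5.54 in Yorkshire (SD, n = 3; limma adjusted p = 0.474).

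NDUFA4L2, the hypoxia-inducible relative of NDUFA4, was the scarcest of the 51, at 2.85, 4.61 and 1.57 FPKM in the Wannanhua libraries and at 5.57, 2.26 and 4.51 in the Yorkshire ones. NDUFA4 exceeded NDUFA4L2 by 929, 582 and 910-fold in the Wannanhua libraries and by 451, 489 and 336-fold in the Yorkshire ones, without overlap. On the log2(FPKM + 1) scale the ratio was 0.79 higher in Wannanhua, and the exact two-sided permutation p was 0.1, the smallest that 3 libraries against 3 allow (0.2 after Benjamini-Hochberg adjustment). The other pair with both genes measured was ATP5MC1 and ATP5MC3, of 8 pairs planned. Those genes encode the same mature subunit c of the ATP synthase ring, and reads of their shared stretch may be split between them. ATP5MC1 exceeded ATP5MC3 by 2.72, 2.79 and 2.63-fold in the Wannanhua libraries and by 2.59, 2.69 and 2.52-fold in the Yorkshire ones, with overlap (log2 difference 0.06, exact two-sided permutation p = 0.2, also 0.2 after adjustment).

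Complex V makes ATP. All 5 genes measured had a positive fold change in limma, from 0.15 to 0.41, and 0 passed. Their median, 0.33, was -0.059 without Yorkshire 2, 0.70 without Yorkshire 1 and 0.069 in edgeR, where 4 of the 5 were positive. ATP5F1A, the alpha subunit of the catalytic head, stood at 971, 1038 and 543 FPKM in the Wannanhua libraries and at 970, 434 and 786 in the Yorkshire ones (log2 fold change 0.24 ± 0.38 SE, limma adjusted p = 0.745). ATP5MC1 stood at 818, 800 and 431 FPKM in the Wannanhua libraries and at 830, 299 and 497 in the Yorkshire ones, so that Yorkshire 1 was level with the upper Wannanhua libraries (limma adjusted p = 0.614). ATP5MC3 had the same pattern at a lower level, 301, 287 and 164 against 321, 111 and 197 FPKM (limma adjusted p = 0.674). ATP5ME, a membrane subunit at the dimer interface, averaged 282 ± 75.4 FPKM in Wannanhua against 226 ± 122 in Yorkshire (SD, n = 3; limma adjusted p = 0.575).

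Among the assembly and regulatory factors the combined library order held in 4 of 8, or in 2 of 8 as recovered reads over library totals, and 0 passed. NDUFAF1 (ENSSSCG00000004748), an assembly factor of the complex I membrane arm, stood at 37.2, 36.5 and 30.9 FPKM in the Wannanhua libraries and at 19.1, 28.6 and 29.9 in the Yorkshire ones. The breeds did not overlap (log2 fold change 0.44 ± 0.21 SE, limma adjusted p = 0.278). Yorkshire 1, the highest library for most subunits, was the lowest here, as it was for 36.3% of all genes tested. NDUFAF7, a methyltransferase needed for complex I assembly, was also lowest in Yorkshire 1, at 9.50, 7.08 and 5.11 FPKM in the Wannanhua libraries and at 3.56, 4.20 and 6.34 in the Yorkshire ones (log2 fold change 0.53 ± 0.27 SE, limma adjusted p = 0.295). NDUFAF6, another complex I factor, averaged 5.18 ± 0.59 FPKM in Wannanhua against 3.96 ± 0.94 in Yorkshire (SD, n = 3; limma adjusted p = 0.367). ATP5IF1, the peptide that blocks ATP hydrolysis by complex V, had the library order of the subunits, at 422, 410 and 276 FPKM in the Wannanhua libraries and at 567, 254 and 306 in the Yorkshire ones (limma adjusted p = 0.958).

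The intervals show what 3 libraries a breed could resolve. The 95% interval of the log2 fold change lay within 1 of 0 on both sides for 34 of the 51 genes, against 64.4% of all genes tested. Its upper bound lay below 1 for 37 of the 51, against 8925 of all 11791. The lower bound lay above -1 for 48 of the 51, against 10277 of all 11791. The median interval, not adjusted for the number of genes tested, reached 0.69 to either side, against 0.52 for all genes.

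**Figure D4:**
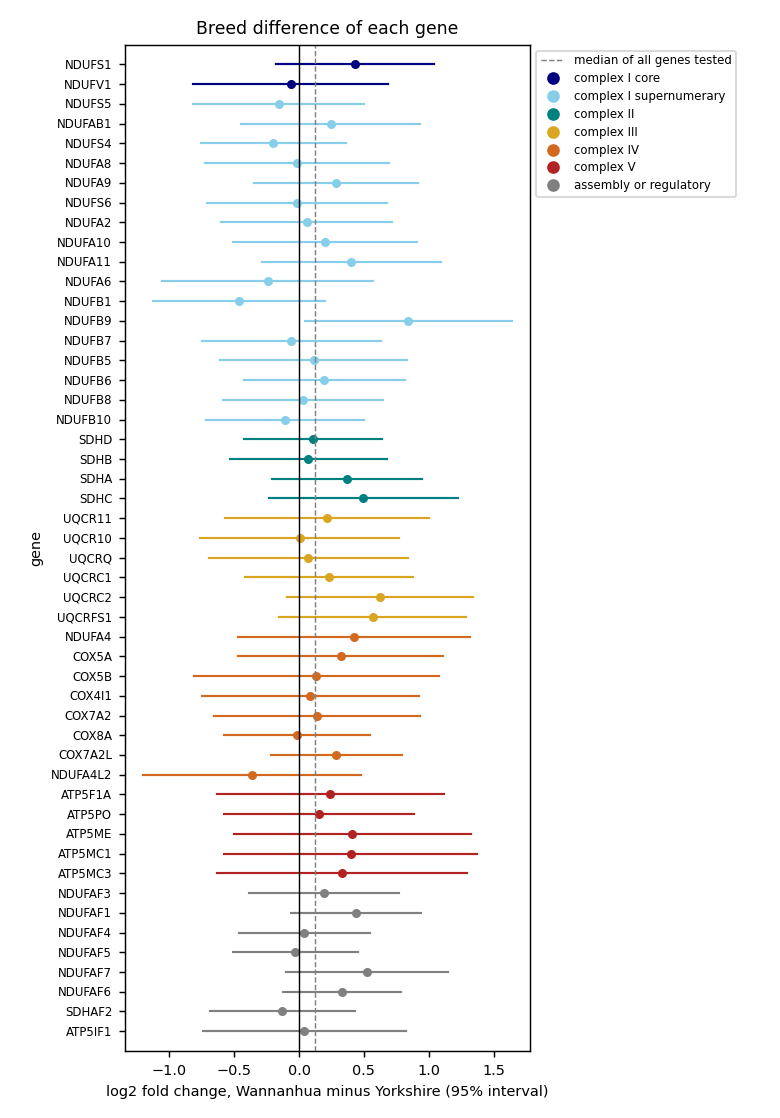
Points give the log2 fold change of 50 of the 51 genes, the Wannanhua less the Yorkshire mean of log2(FPKM + 1), with 95% intervals from limma; colours mark the complex, the solid line is 0 and the dashed line the median of all genes tested, 0.12. Of all 51 intervals 50 include 0, against 9186 of the 11791 over all genes tested. The exception is NDUFB9, which does not pass after adjustment.

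The median log2 fold change of the 51 genes was 0.15, with 38 positive, against 62.6% positive among all genes tested. Its sign turned on the libraries and the scaling. Without Yorkshire 2 the median was -0.06 with 20 positive, and without Yorkshire 1 it was 0.41 with 49 positive. Without Wannanhua 1 it was 0.06, without Wannanhua 2 it was 0.09, and without Wannanhua 3 it was 0.34. In edgeR with TMM scaling it was -0.01 with 25 positive, beside 0.01 for all genes. After centring each library on the 51 genes, which lowers every gene's fold change by the same amount, 0 of 51 passed in limma, against 2.64% of all genes. Without Yorkshire 1, 12 of the 51 had an unadjusted limma p under 0.05, which is 23.5% against 22.6% of all genes, and 0 passed after adjustment, against 1.61%.

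Other genes of the pathway were taken from a list of 81 symbols, of which 46 were matched and 45 tested. In limma 1 of the 45 passed, against 3.05% of all genes, and 15 had an unadjusted p under 0.05, against 22.1%. The gene that passed, higher in Wannanhua, was DMAC1, an assembly factor of the distal membrane arm of complex I. It stood at 3.07, 2.04 and 2.59 FPKM in the Wannanhua libraries and at 0.21, 0.25 and 0.41 in the Yorkshire ones, without overlap (log2 fold change 1.46 ± 0.18 SE, limma adjusted p = 0.0165, edgeR adjusted p = 0.0157). DMAC1 met the limma filter, 1 FPKM or more in 3 libraries, only through Wannanhua, with all Yorkshire values below 1 FPKM. The filter and the limma test thus drew on the same values. It no longer passed without Wannanhua 1, Wannanhua 2, Yorkshire 2 or Yorkshire 3. At the stricter filter of 5 FPKM it was not tested, since all its values lay below that. Among the genes with the next smallest p, LRPPRC, which stabilises mitochondrial mRNAs, stood at 48.8, 49.6 and 48.7 FPKM in the Wannanhua libraries and at 31.6, 29.2 and 29.9 in the Yorkshire ones. Its breeds were far apart for their narrow spread and it still did not pass (log2 fold change 0.68 ± 0.15 SE, limma adjusted p = 0.0577). COX15, needed for the haem of complex IV, averaged 6.22 ± 1.02 FPKM in Wannanhua against 3.15 ± 0.82 in Yorkshire (SD, n = 3; limma adjusted p = 0.0873).

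Of the 10 tested genes for electron carriers and coenzyme Q synthesis, 8 had a positive fold change (median 0.60), while 0 passed in limma or edgeR, with 6 at an unadjusted limma p under 0.05, where all genes had 22.1%. Of the 14 for supercomplexes and cristae, 8 were positive, with a median of 0.08, and 0 passed in limma or edgeR, with 3 at an unadjusted limma p under 0.05, close to that share. The 21 assembly factors named outside the rule, DMAC1 among them, had a median of 0.09, with 14 positive, 1 called and 6 at an unadjusted limma p under 0.05.

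Several marker lists moved across the libraries with the 51 genes. The summed level of the 51 genes was 17543, 17055 and 11270 FPKM in Wannanhua 1, 2 and 3, against 19805, 9518 and 12328 in Yorkshire 1, 2 and 3. The 9 usable mitochondrially encoded transcripts summed to 102950 to 152648 FPKM in Wannanhua, lowest in library 3, and to 65090 to 109827 in Yorkshire, lowest in library 2 and highest in library 1. The 4 slow-fibre genes found of 8 listed, TNNI1, TNNT1, TNNC1 and MYL3, summed to 38305, 41054 and 10108 FPKM in the Wannanhua libraries and to 17014, 5577 and 9978 in the Yorkshire ones. They had the same order inside Yorkshire as the chain and were likewise lowest of their breed in Wannanhua 3. In summed FPKM the slow-fibre genes were higher and the chain lower in Wannanhua 1 than in Yorkshire 1. That contrast is of single libraries, not of breeds. By share of recovered reads the chain was higher in Wannanhua 1, at 1.33%, and Wannanhua 2, at 1.31%, than in Yorkshire 1, at 1.21%. The totals behind these shares hold COX3 as 0 in Wannanhua 1 and Wannanhua 2, and ACTA1 as 0 in Wannanhua 1. In Yorkshire 1 both were measured, and the part of this in the shares was not tested. The 3 fast-fibre genes found of 10 listed, TNNC2, ATP2A1 and PVALB, summed to 9973, 6714 and 22718 FPKM in the Wannanhua libraries and to 30244, 26228 and 27677 in the Yorkshire ones. Their sum thus also had the chain's order inside Yorkshire, through TNNC2, while ATP2A1 and PVALB were highest in Yorkshire 3. In Wannanhua the fast-fibre sum was highest in library 3, where the chain was lowest of its breed. The fibre-type myosin heavy chains MYH7, MYH1, MYH2 and MYH4 were not matched.

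**Figure D5:**
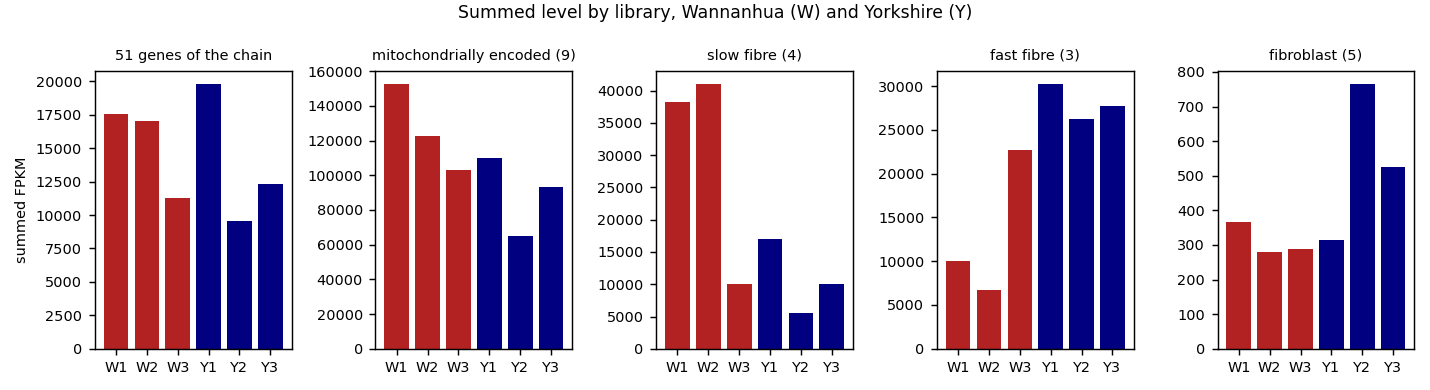
Bars give the summed FPKM of the 51 respiratory chain genes, 9 mitochondrially encoded transcripts, 4 slow-fibre, 3 fast-fibre and 5 fibroblast genes in each library of Wannanhua (W, red) and Yorkshire (Y, blue). On this FPKM scale the chain is lowest in Y2, at 9518, and highest in Y1, at 19805. The slow-fibre genes are highest in W2 and W1. By share of reads the chain is highest in W1, at 1.33%, where the read total holds ACTA1 and COX3 as 0.

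Markers of other cells were low beside muscle genes. The 5 fibroblast genes found of 6 listed summed to 365, 281 and 288 FPKM in the Wannanhua libraries and to 316, 766 and 525 in the Yorkshire ones. They were highest in Yorkshire 2, where the chain was lowest. Within Wannanhua they were highest in library 1, where the summed FPKM of the chain was also highest of that breed. Red-cell markers, 2 found of 3, summed to 43.4 to 142 FPKM in Wannanhua and 15.8 to 93.6 in Yorkshire, and were lowest in the same libraries as the chain. Adipocyte markers, 3 found of 6, summed to 10.7 to 13.98 FPKM in Wannanhua and 1.32 to 12.3 in Yorkshire, lowest in Yorkshire 1. Endothelial markers, 3 of 5, summed to 35.1 to 52.1 and 39.1 to 47.4 FPKM, and macrophage markers, 3 of 5, to 5.40 to 6.92 and 4.47 to 7.14. No marker found was at 0 in all libraries. The part of fibre type and of other cells in the library order was not tested, and in bulk muscle fewer cells of a type and less RNA per cell cannot be told apart.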

How the data were processed

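Poly-A RNA of 6 muscle libraries was sequenced as paired ends with a kit that does not mark strand, per the labels' protocols. The authors' deposited table gives FPKM and, per the file headers, a count for each of 17627 genes. CASAVA 1.7, TopHat2 2.0.6 and the build Sscrofa10.2 are named, without a role, in the submitters' processing notes. No source used here gives the counter, the annotation or the handling of reads with several matches. The deposited counts are a scaled signal: 99.71% to 99.82% of values above 0 were whole multiples of 1 step per library, within 0.01 of a read or a relative 1e-05, and division by it recovered reads. Symbols came from a name table matching 10384 identifiers (58.9%); no coordinates were used.

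Breed was tested over all genes with limma 3.58.1 in R 4.3.3 on log2(FPKM + 1), with trend and robust settings and Benjamini-Hochberg adjustment at 0.05, after keeping 11798 genes at 1 FPKM or more in 3 libraries and removing 7 listed at 0 in a library but at 10000 or more scaled counts in another. The written design asked for a count test had the table held raw counts, so limma was used. Alternatives were edgeR 4.0.16 quasi-likelihood tests on recovered reads, other filters, pseudocounts and scalings, a replicate block and each library left out; limma and edgeR were tested on simulated data. Genes named are, per class, the 3 with the smallest p and the most abundant, any past the threshold, and a set list of known subunits; of the other pathway genes, those past the threshold and the 3 with the smallest p. 1 gene that the rule names is not reported here. Single ratios used exact permutation tests in scipy 1.17.1. Members and lists were chosen with earlier results of these data known.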

Additional observations from a re-analysis of the deposited data

How the results depend on the processing

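Each breed had 3 libraries, and the scarcest gene, NDUFA4L2, had 29 to 100 reads in a library. The count of respiratory chain genes past the threshold was 0 under all 17 alternatives, of which centring each library on the 51 genes was chosen after seeing the data. Deviations of same-numbered libraries correlated weakly, at 0.1, -0.01 and 0.11, against -0.13 to 0.02 for differently numbered ones. These values do not settle whether the replicate numbers pair the libraries. With the replicate block 0 of the 51 genes and 205 of all genes passed, against 360 without it. Over all genes the count was 69 without a filter and 27 to 524 with a library left out. For the other pathway genes the count of 1 was 0 after centring and 0 to 1 with a library left out. The median of the assembly and regulatory factors, 0.12, was -0.065 in edgeR with TMM, -0.081 with RLE, -0.064 in edgeR without a filter, and -0.034 to 0.31 with a library left out. Medians of complexes I to V moved by less than the spread between libraries, though those of supernumerary complex I, complex IV and complex V changed sign under some settings.

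Of all 51 genes, 13 changed the sign of their fold change in edgeR with TMM, 14 with RLE, 13 in edgeR without a filter and 2 after quantile normalization, and none of the 51 had passed the threshold. Centring on the 51 genes takes the same 0.28 from every gene, so the 21 sign changes there are fixed by its construction. Of the genes named in the text, those that changed sign in edgeR with TMM were ATP5IF1 -0.17, COX4I1 -0.093, COX7A2 -0.034, SDHB -0.058, SDHD -0.063. With RLE the named genes were ATP5IF1 -0.19, ATP5MC3 -0.00084, COX4I1 -0.11, COX7A2 -0.052, SDHB -0.074, SDHD -0.078. In edgeR without a filter they were ATP5IF1 -0.17, COX4I1 -0.092, COX7A2 -0.034, SDHB -0.057, SDHD -0.061. After centring they were ATP5F1A -0.035, ATP5IF1 -0.24, COX4I1 -0.19, COX7A2 -0.14, NDUFAB1 -0.033, SDHB -0.20, SDHD -0.17, UQCR11 -0.065, UQCRC1 -0.049. With a library left out the named genes whose range crossed 0 were ATP5F1A -0.095 to 0.54, ATP5IF1 -0.20 to 0.38, ATP5MC3 -0.059 to 0.70, COX4I1 -0.20 to 0.42, COX7A2 -0.14 to 0.48, COX8A -0.14 to 0.22, NDUFV1 -0.34 to 0.24, SDHB -0.10 to 0.31, SDHD -0.028 to 0.25, UQCR11 -0.0019 to 0.57. The cause of the changes other than by centring was not tested.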
